A study of Homo sapiens with 9 samples.

Results

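The 8 protein-coding genes examined here, CTTNBP2NL, ST7L, CAPZA1, MOV10, RHOC, PPM1J, SLC16A1 and LRIG2, lie on chromosome 1 within 500 kb of LINC01356, the gene of the long noncoding RNA LIMp27. They were listed as protein-coding genes of this window with a row in both deposited expression tables, a rule that uses no fold change. It does need some reads, as every row had at least 2 over its 6 libraries. They are 8 of the 1489 protein-coding genes of chromosome 1 in both tables and of the 22741 genes of any type in both. The list does not hold every gene that the rule gives: by coordinates a 9th protein-coding gene, WNT2B, meets it, and its values are given beside those of the 8. The cells were WiDr, an established human colon adenocarcinoma line with mutant p53, transfected with siRNA at 100 nM for 24 h. There were 3 groups of 3 libraries: control siRNA, LIMp27 siRNA-1 and LIMp27 siRNA-2 (siRNA-1 and siRNA-2 from here on). The labels name no other treatment, and the siRNA is the sole difference between groups that they give. All 9 libraries come from this 1 line, knockdown was transient, and an siRNA degrades a transcript without altering the gene that makes it.

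Some long noncoding RNAs act in cis, that is, on genes beside the one they are transcribed from, either through the RNA or through the act of transcribing it, and others act in trans on transcripts and proteins made elsewhere. LIMp27 is named for the mRNA of the cell cycle inhibitor p27 (CDKN1B), whose gene lies on another chromosome. A change in cis would be sought among the neighbours of LINC01356, so the question here was whether their transcripts changed with either siRNA. The neighbours serve unlike functions. CAPZA1 is an alpha subunit of the capping protein that blocks the fast-growing ends of actin filaments, and RHOC is a small GTPase that drives contractility and cell movement. SLC16A1 encodes the lactate and pyruvate carrier MCT1, whose activity matters to glycolytic tumour cells. PPM1J is a PP2C-type phosphatase, and CTTNBP2NL belongs to the STRIPAK complexes built around phosphatase PP2A. MOV10 is an RNA helicase that works with Argonaute proteins, LRIG2 is a membrane protein of a family that modulates growth factor receptors, and ST7L is a relative of the candidate tumour suppressor ST7.

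LINC01356 is at chr1:112820170-112850643 on the minus strand (GRCh38). On its lower-coordinate side PPM1J came first, with a gap of 104.7 kb between gene bodies, followed by RHOC at 112.7 kb, MOV10 at 119.4 kb, CAPZA1 at 148.6 kb, ST7L at 199.3 kb, WNT2B at 290.0 kb and CTTNBP2NL at 356.7 kb. On the other side SLC16A1 was the nearest of all the protein-coding genes, at 61.2 kb, and LRIG2 lay at 222.6 kb. Several of these genes touch each other. ST7L, on the minus strand, and CAPZA1, on the plus strand, stand head to head, and their annotated gene bodies overlap by 1653 bases. MOV10 and RHOC are separated by 359 bases, and CAPZA1 and MOV10 by 1521 bases. The annotated exons of ST7L share 2661 bases with those of WNT2B and 624 bases with those of CAPZA1, in both cases on the opposite strand. The libraries kept the strand, but no source used here says that the counting did, so reads in these shared bases cannot be assigned to 1 of the genes.

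**Figure D1:**
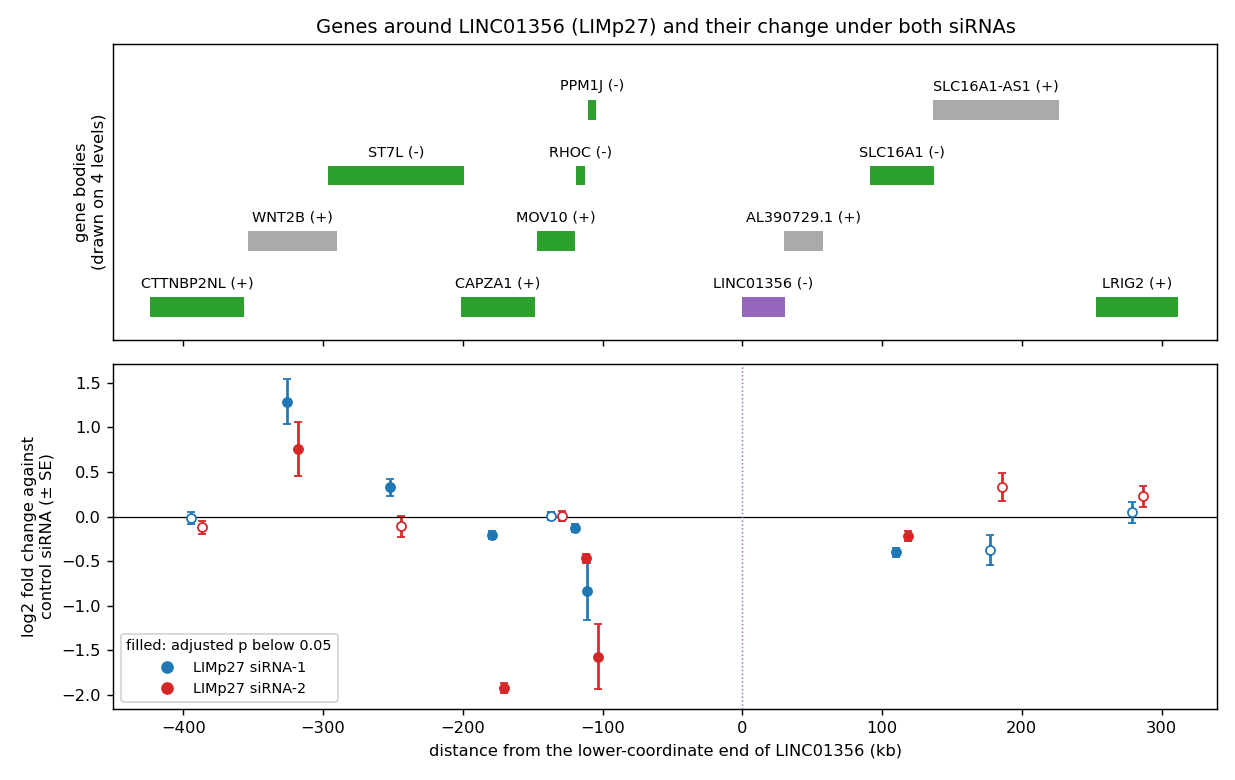
The upper panel draws gene bodies by distance in kb from the lower-coordinate end of LINC01356 (green, the 8 neighbours; purple, LINC01356; grey, other genes; strand in brackets; the 4 levels only keep names apart), and the lower panel gives the log2 fold change ± SE of each tested gene against control siRNA at the middle of its body, for siRNA-1 (blue) and siRNA-2 (red), filled where the adjusted p was below 0.05. CAPZA1 with siRNA-2, at -1.92, stands far below MOV10, 1521 bases away, at 0.005, and LINC01356 itself had too few reads for a point.

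ST7L and CAPZA1 are shown in sequence because their promoters adjoin and yet, as given below, did not move together. Their RefSeq start sites are 691 bases apart on opposite strands. The lines give the 250 bases before each start site in GRCh38.p14, read 5′ to 3′ on the strand of the gene, ST7L from chr1:112619142-112619391 on the minus strand and CAPZA1 from chr1:112619582-112619831 on the plus strand, with a CCAAT box, or its reverse complement ATTGG, in capitals.
ST7L: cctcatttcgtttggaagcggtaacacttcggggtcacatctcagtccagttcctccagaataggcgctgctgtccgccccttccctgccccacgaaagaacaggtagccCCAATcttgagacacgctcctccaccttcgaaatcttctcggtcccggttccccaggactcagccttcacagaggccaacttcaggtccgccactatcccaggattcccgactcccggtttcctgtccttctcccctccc
CAPZA1: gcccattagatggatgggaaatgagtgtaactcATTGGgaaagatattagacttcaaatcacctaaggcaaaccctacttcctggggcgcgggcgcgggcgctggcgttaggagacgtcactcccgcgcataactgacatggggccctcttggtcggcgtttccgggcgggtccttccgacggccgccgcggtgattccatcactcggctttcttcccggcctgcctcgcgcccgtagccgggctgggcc
RefSeq promoter windows of 250 bases before and 50 after the start were found for 6 of the 8 genes, and none was found for PPM1J and SLC16A1. Searched on both strands, CCAAT was present in a window of CTTNBP2NL, ST7L, CAPZA1 and LRIG2, and in 34.6% of 35116 windows across the genome. None of the windows of the 6 genes, nor that of LINC01356, held TATAAA, found in 11.5% of all windows. They also lacked each of the E2F-type letters TTTCCCGC, TTTCGCGC, TTTGCCGC and TTTGGCGC, any of which was found in 3.31%. The study places the E2F1 site of LIMp27 farther upstream than the 250 bases searched, so this search does not bear on that site. The windows of ST7L and CAPZA1 each had a G and C content of 60.7%, near the genome-wide median of 58.7%, and that of LINC01356 had 47.7%.

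The targeted transcript was hardly sequenced. LINC01356 had 0, 0 and 2 reads in the control libraries, 0 in each of the siRNA-1 libraries and 0, 2 and 1 with siRNA-2. The exact Poisson 95% intervals of the group sums, which cover counting error only, were 0.242 to 7.22 reads for control siRNA, 0 to 3.69 for siRNA-1 and 0.619 to 8.77 for siRNA-2. These counts could not show whether LIMp27 was lowered, so the reads do not check the siRNA labels. The study measured the knockdown in WiDr cells by quantitative PCR, which is not analysed here. AL390729.1, the record of LINC01357, which overlaps LINC01356 by 616 bases head to head, had sums of 4, 2 and 2 reads in the same order of groups. The study reports no change of LINC01357 when LIMp27 was knocked down or overexpressed in another colon cancer line with mutant p53. Depth ran from 14361629 to 21524623 reads counted to genes per library, and log2 CPM of libraries of a group correlated at 0.990 to 0.994. Of 8 markers of colon epithelium, 7 were above 10 FPKM in every library. The exception was CDX2, an intestinal transcription factor, at 0.301 to 0.922 FPKM. Of 8 markers of immune cells, fibroblasts and endothelium, 7 were below 1 FPKM in every library and the highest value was 1.247 FPKM, for COL1A1. In a bulk sample, fewer cells of a type and less RNA per cell cannot be told apart.

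With siRNA-1, of the 8 neighbours 1 was called higher (ST7L), 4 were called lower (CAPZA1, RHOC, PPM1J and SLC16A1) and 3 did not pass the test (CTTNBP2NL, MOV10 and LRIG2). With siRNA-2, the same 4 were called lower, none was called higher and CTTNBP2NL, ST7L, MOV10 and LRIG2 did not pass. A gene was called where the Benjamini-Hochberg adjusted p of edgeR's quasi-likelihood test was below 0.05. So many genes passed this threshold that a call alone says little. Of 14347 genes tested for siRNA-1, 54.8% were called, 26.5% higher and 28.3% lower, and of 14204 tested for siRNA-2, 56.7% were called, 27.7% higher and 29.0% lower. The neighbours' counts, 5 of 8 with siRNA-1 and 4 of 8 with siRNA-2, lay near the shares of all protein-coding genes, 59.9% and 61.1%. Their median log2 fold change was -0.07 with siRNA-1 and -0.17 with siRNA-2. Over all tested protein-coding genes it was -0.026 and -0.023, and over all tested genes 0.00094 and 0.012. Both comparisons use the same 3 control libraries, so a value shared between them is not an independent repeat. Scaled by library totals alone, without TMM, fold changes of all genes shifted up by a median of 0.09 on the log2 scale in both comparisons, and the share of calls that were higher went from 48.3% to 62.2% for siRNA-1 and from 48.9% to 59.7% for siRNA-2. The 4 neighbours lower with siRNA-1 were then 2, CAPZA1 and SLC16A1. Over all genes, a called log2 fold change had a median size of 0.41 with siRNA-1 and 0.50 with siRNA-2.

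CAPZA1, the actin capping subunit, had the largest change among the 8 in these comparisons, and nearly all of it was seen with siRNA-2. Its control libraries had 337.2, 328.8 and 346.5 CPM (reads scaled to library size, on 1 TMM scale over the 9 libraries). siRNA-1 libraries had 297.7, 295.25 and 283.7 CPM, all a little below control. siRNA-2 libraries had 93.2, 84.0 and 87.8 CPM, far below both other groups and close to each other. The group means were 337.5 ± 8.84, 292.2 ± 7.44 and 88.3 ± 4.61 CPM (SD, n = 3). CAPZA1 was therefore 1.152-fold lower with siRNA-1 (log2 fold change -0.20, SE 0.04, adjusted p = 0.00017) and 3.79-fold lower with siRNA-2 (-1.92, SE 0.06, adjusted p = 1.83e-21). The second value ranked 92nd from the lowest among the 14204 tested genes, and 1st of the 85 tested protein-coding genes within 10 Mb of LINC01356. That of siRNA-1 ranked 4186th of 14347, and 30th of 87 nearby. ST7L, which shares 624 exon bases with CAPZA1, had at most 367 reads in a library, against 5415 to 6161 for CAPZA1 in the control libraries. The shared bases are 15.1% of the exon bases of CAPZA1 and 7.69% of those of ST7L. How far reads of either gene were counted to the other was not tested.

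RHOC, the small GTPase beyond MOV10, fell with both siRNAs, and again more with siRNA-2. The control libraries held 170.8, 167.4 and 175.1 CPM, those of siRNA-1 153.4, 155.1 and 159.6 CPM and those of siRNA-2 120.6, 128.3 and 119.6 CPM. The 3 groups did not overlap on this scale. RHOC was 1.09-fold lower with siRNA-1 (log2 fold change -0.13, SE 0.04, adjusted p = 0.0151) and 1.38-fold lower with siRNA-2 (-0.47, SE 0.05, adjusted p = 2.02e-08). The smaller fall depended on the scaling: with library totals alone it was -0.03 with an adjusted p of 0.541, and on the deposited FPKM scale the siRNA-1 libraries, at 172 to 180.1, overlapped the control libraries, at 177.0 to 183.6. It was also lost without the 1st control library (adjusted p = 0.0527).

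SLC16A1, the lactate carrier and nearest protein-coding neighbour, was lower with both siRNAs and more so with siRNA-1, the reverse of the order seen for CAPZA1 and RHOC. Control libraries had 199.4, 195.6 and 185.6 CPM. The siRNA-1 libraries had 134.7, 148.7 and 154.2 CPM, and the siRNA-2 libraries 156.6, 167.5 and 174.0 CPM. On this scale every library of either LIMp27 siRNA was below every control library, and the 2 LIMp27 siRNA groups did not overlap either. On the deposited FPKM scale the highest siRNA-2 library, at 93.4, was just above the lowest control library, at 92.9. The log2 fold change was -0.40 with siRNA-1 (SE 0.05, adjusted p = 6.09e-08), a 1.32-fold fall, and -0.21 with siRNA-2 (SE 0.06, adjusted p = 0.00153), a 1.16-fold fall. With library totals alone the second became -0.13 with an adjusted p of 0.0535. SLC16A1-AS1, an antisense RNA that shares 175 exon bases with SLC16A1 and starts beside it, had 60 to 88 reads per library with siRNA-1, 79 to 107 with control siRNA and 100 to 115 with siRNA-2. It passed neither test against control (log2 fold change -0.38, adjusted p = 0.0586, and 0.33, adjusted p = 0.0797).

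PPM1J, the PP2C-type phosphatase, was scarcely expressed, and its values rest on few reads. It had 27 reads in each control library, 22, 13 and 15 with siRNA-1 and 9, 7 and 10 with siRNA-2. All 6 siRNA libraries were below the control libraries in CPM, and the 1st siRNA-1 library, at 1.30 CPM, stood nearer to the control libraries, at 1.52 to 1.64, than to the other 2 of its group, at 0.68 each. The log2 fold change was -0.84 with siRNA-1 (SE 0.32, adjusted p = 0.0291) and -1.57 with siRNA-2 (SE 0.36, adjusted p = 0.000509), a 1.79-fold and a 2.97-fold fall. The first call was lost with DESeq2 (adjusted p = 0.121) and without the 2nd or 3rd siRNA-1 library (0.126 and 0.14) or the 1st or 2nd control library (0.0607 and 0.0755). RHOC and PPM1J share 433 and 492 exon bases, 10.7% and 17.1% of their own, with AL603832.3, annotated as a protein-coding gene of the same strand. What this did to their counts was not tested.

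ST7L was the single neighbour called higher, with siRNA-1 alone. Its control libraries had 13.0, 13.97 and 14.2 CPM, the siRNA-1 libraries 16.5, 18.4 and 16.6 CPM and the siRNA-2 libraries 10.5, 14.8 and 13.0 CPM. siRNA-1 libraries were above all others, and those of siRNA-2 spread to both sides of the control libraries. ST7L was 1.254-fold higher with siRNA-1 (log2 fold change 0.33, SE 0.09, adjusted p = 0.00345). Under siRNA-2 ST7L stood at -0.11 on the log2 scale (95% interval -0.35 to 0.13, adjusted p = 0.449), while CAPZA1, on the other side of the adjoining promoters, was at -1.92. The gene whose exons run over the other end of ST7L, WNT2B, a secreted Wnt ligand, had 18, 19 and 24 reads with control siRNA, 54, 55 and 57 with siRNA-1 and 34, 29 and 36 with siRNA-2. WNT2B was 2.44-fold higher with siRNA-1 (log2 fold change 1.29, SE 0.25, adjusted p = 7.74e-05) and 1.69-fold higher with siRNA-2 (0.76, SE 0.30, adjusted p = 0.0314). The shared 2661 bases are 32.8% of the exon bases of ST7L, and how far reads of 1 gene were counted to the other was not tested.

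MOV10, CTTNBP2NL and LRIG2 passed the test with neither siRNA. MOV10, the Argonaute-associated helicase, had 105.2, 107.8 and 105.8 CPM with control siRNA, 109.9, 106.0 and 103.8 with siRNA-1 and 111.0, 107.2 and 99.4 with siRNA-2. The groups overlapped fully, and the 95% intervals of the log2 fold change were -0.09 to 0.10 and -0.12 to 0.12. AL603832.1, an antisense RNA that shares 145 exon bases with MOV10, had log2 fold changes of 0.55 (adjusted p = 0.331) and 1.10 (adjusted p = 0.0594) at mean levels under 1 CPM. CTTNBP2NL, the STRIPAK component, had means of 56.1 ± 4.82, 55.0 ± 5.32 and 51.4 ± 3.82 CPM (SD, n = 3) with control siRNA, siRNA-1 and siRNA-2, with intervals of -0.16 to 0.12 and -0.27 to 0.03. LRIG2 had means of 9.91 ± 1.26, 10.2 ± 0.746 and 11.6 ± 0.278 CPM (SD, n = 3), with intervals of -0.19 to 0.28 and -0.02 to 0.47. It shares 1563 exon bases, 12.5% of its own, with RLIMP2, a processed pseudogene on the opposite strand. For siRNA-2 the calls of CTTNBP2NL and LRIG2 turned on single libraries. Without the 3rd control library CTTNBP2NL was called lower (log2 fold change -0.20, adjusted p = 0.0285) and LRIG2 higher (0.33, adjusted p = 0.0339).

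**Figure D2:**
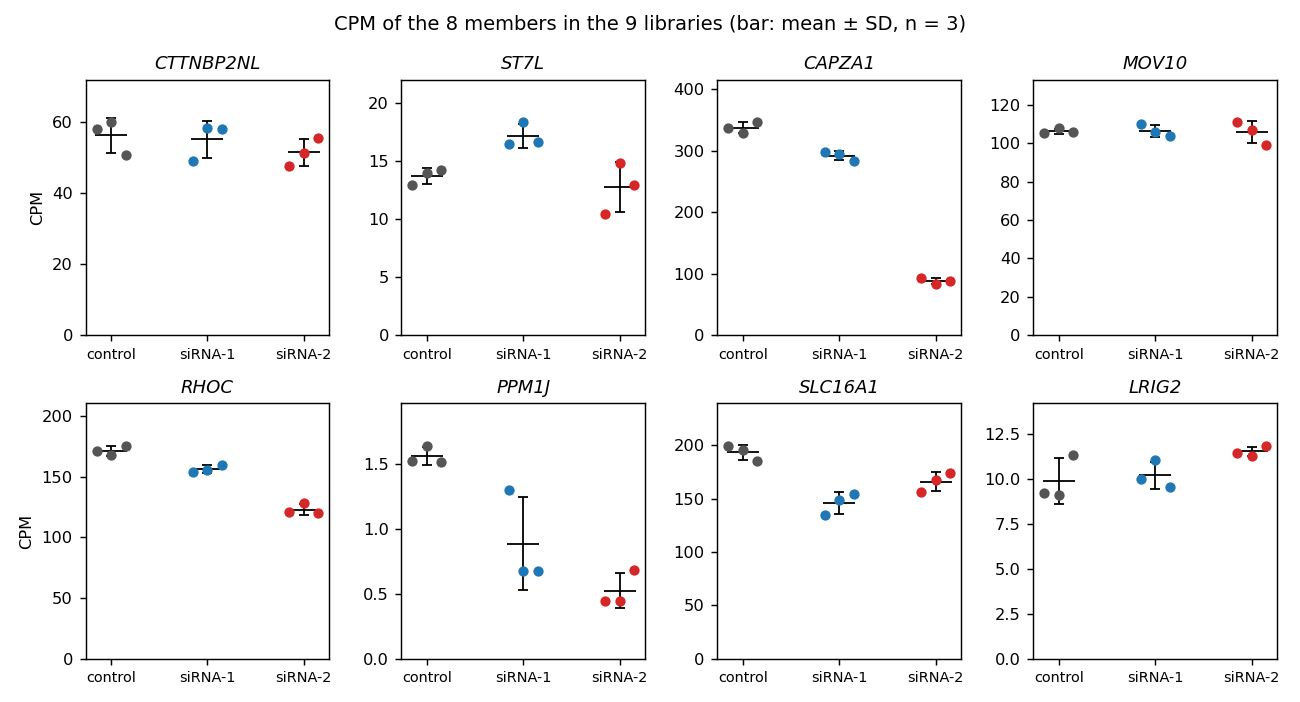
CPM of each of the 8 genes (vertical axes from 0, each panel with its own scale) in the 3 libraries of control siRNA (grey), siRNA-1 (blue) and siRNA-2 (red), with the mean and SD as black bars (n = 3). CAPZA1 drops from a mean of 337.5 CPM to 88.3 with siRNA-2, the RHOC groups step down from 171.1 to 156.0 and 122.8 CPM, and the MOV10 groups lie over one another.

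In transcripts per length, as the deposited FPKM give them, the neighbours spanned more than 2 orders of magnitude in the control libraries. CAPZA1 led with a mean of 306.5 FPKM, followed by RHOC at 180.0, SLC16A1 at 97.2, MOV10 at 56.6, CTTNBP2NL at 23.8, ST7L at 8.56, LRIG2 at 2.26 and PPM1J at 0.972 FPKM. The library ranges of neighbours in this order did not overlap. siRNA-1 left the order as it was. With siRNA-2, RHOC led at 138.1 FPKM, and CAPZA1, at 81.9 to 89.98 FPKM, came down to the range of SLC16A1, at 83.6 to 93.4.

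Whether the siRNAs differed from each other was tested directly, without the control libraries. Of 14415 genes, 45.4% were called, 23.1% higher with siRNA-2 and 22.4% lower. Among the neighbours 1 was higher with siRNA-2 and 3 were lower, again about the background, as 50.9% of all tested protein-coding genes were called. CAPZA1 was 3.27-fold lower with siRNA-2 than with siRNA-1 (log2 difference -1.71, SE 0.05, adjusted p = 2.96e-21), which ranked 67th from the lowest over all genes. RHOC was also lower (-0.33, SE 0.05, adjusted p = 6.09e-06), as was ST7L (-0.43, SE 0.11, adjusted p = 0.00181). SLC16A1 was higher (0.20, SE 0.06, adjusted p = 0.00496), and so was its antisense RNA SLC16A1-AS1 (0.72, SE 0.16, adjusted p = 0.000358). PPM1J did not pass (-0.72, 95% interval -1.57 to 0.13, adjusted p = 0.162), nor did CTTNBP2NL, MOV10 and LRIG2, whose intervals were -0.24 to 0.06, -0.11 to 0.12 and -0.03 to 0.41. The difference for SLC16A1 was lost without the 1st siRNA-1 library (0.14, adjusted p = 0.0646).

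The window was then set beside the rest of chromosome 1 by distance, as a description with no test. Up to 500 kb, WNT2B included, 66.7% of 9 tested protein-coding genes were called with siRNA-1 and 55.6% with siRNA-2. From 2 to 5 Mb away these shares were 59.0% of 39 and 71.1% of 38, and over 10 Mb away 58.6% of 1150 and 62.0% of 1139. In between, the shares ran from 40.0% to 66.7% with siRNA-1 and from 33.3% to 66.7% with siRNA-2, with no steady fall with distance. Of the 3 protein-coding genes tested just outside the window, up to 1 Mb, PHTF1, a membrane protein gene, was 1.92-fold higher with siRNA-1 (log2 fold change 0.94, SE 0.07, adjusted p = 7.11e-12) and did not pass with siRNA-2 (-0.19, adjusted p = 0.0899). Its direct difference between the siRNAs was -1.12 (adjusted p = 8.83e-13), with siRNA-1 the group that left the control level. MAGI3 was lower with siRNA-1 (-0.20, adjusted p = 0.0204) and RSBN1 with siRNA-2 (-0.33, adjusted p = 0.00572). Of other gene types at this distance, AL391058.1 was higher with siRNA-1 (1.29, adjusted p = 0.00675) and at -0.08 with siRNA-2. It had 2 to 30 reads per library. AL133517.1 did not pass with siRNA-1 (0.74, adjusted p = 0.161).

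**Figure D3:**
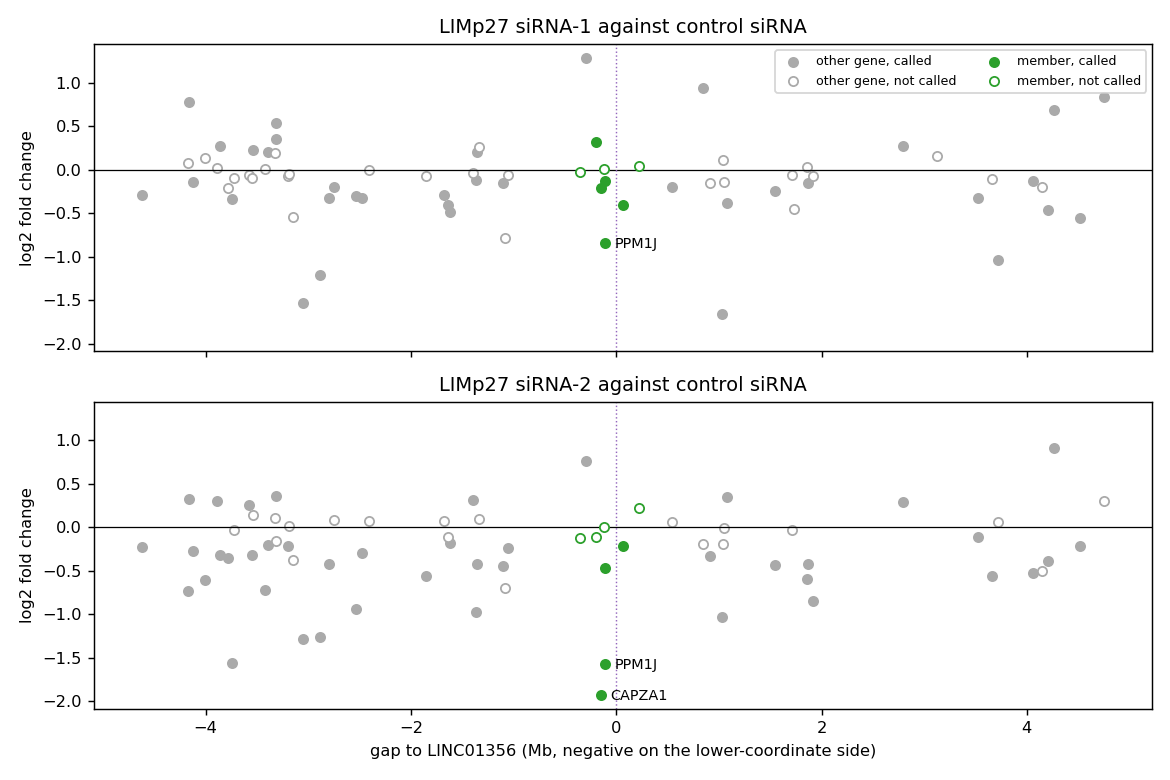
Log2 fold change of each tested protein-coding gene of chromosome 1 against its gap to LINC01356 in Mb (negative on the lower-coordinate side, to 5 Mb), for siRNA-1 (top) and siRNA-2 (bottom), with the 8 neighbours in green and other genes in grey, filled where called. Called and uncalled genes mix at every distance, and CAPZA1 and PPM1J are the lowest points with siRNA-2, at -1.92 and -1.57. TAF13, a gene 2 to 5 Mb away, is level with PPM1J at -1.56.

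Of 14 listed relatives of the neighbours elsewhere in the genome, 11 were tested, with 1 higher and 6 lower with siRNA-1 and 2 higher and 3 lower with siRNA-2. These calls made up 63.6% and 45.5% of the relatives tested, beside 59.9% and 61.1% of all tested protein-coding genes. The median log2 fold changes of the relatives were -0.15 and 0.03. Capping protein is a dimer of an alpha and a beta chain. CAPZA2, the other widely used alpha chain, was lower with siRNA-1 (log2 fold change -0.37, SE 0.05, adjusted p = 1.12e-07) and did not pass with siRNA-2 (0.03, 95% interval -0.09 to 0.16), a difference between the siRNAs of 0.42 (adjusted p = 8.42e-07). CAPZB, the beta chain, was at -0.15 (adjusted p = 0.00463) and 0.06 (adjusted p = 0.31). Neither chain had a value like that of CAPZA1 with siRNA-2. The longest run of bases that the annotated transcripts of CAPZA1 and CAPZA2 share exactly was 20. Among the relatives of RHOC, RHOB moved against RHOC, with 1.61-fold and 1.81-fold higher levels (0.69, SE 0.04, adjusted p = 9.67e-14, and 0.85, SE 0.06, adjusted p = 1.19e-13), and RHOA was lower with siRNA-2 (-0.16, SE 0.05, adjusted p = 0.00561) and did not pass with siRNA-1 (-0.07, adjusted p = 0.188), with no call for the difference (adjusted p = 0.172).

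Of the 3 listed relatives of SLC16A1, the 2 that were tested fell with both siRNAs. They were SLC16A3, the lactate exporter MCT4 (log2 fold change -0.23, SE 0.05, adjusted p = 0.000391, and -1.24, SE 0.07, adjusted p = 7.38e-15), and the low-expressed SLC16A7, MCT2 (-1.09, SE 0.16, adjusted p = 1.41e-06, and -1.06, SE 0.17, adjusted p = 4.6e-06). LDHA, the lactate dehydrogenase chain that makes lactate from pyruvate, fell too (-0.50, SE 0.04, adjusted p = 1.97e-11, and -1.30, SE 0.05, adjusted p = 2.8e-19), while BSG, the chaperone that brings MCT1 and MCT4 to the membrane, rose 1.17-fold with each. LDHB was at -0.22 (adjusted p = 0.0028) and -0.15 (adjusted p = 0.123). SLC16A1 differed from SLC16A3 and LDHA in that its fall was the smaller with siRNA-2. LRIG1 went opposite ways (-0.45, SE 0.08, adjusted p = 5.26e-05, and 0.43, SE 0.09, adjusted p = 0.000219), and its fellow LRIG3 was lower with siRNA-1 (-0.41, adjusted p = 0.000711), and at 0.14 with siRNA-2 (adjusted p = 0.226), whereas LRIG2 passed neither test. ST7, PPM1H and PPM1M passed neither test against control.

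**Figure D4:**
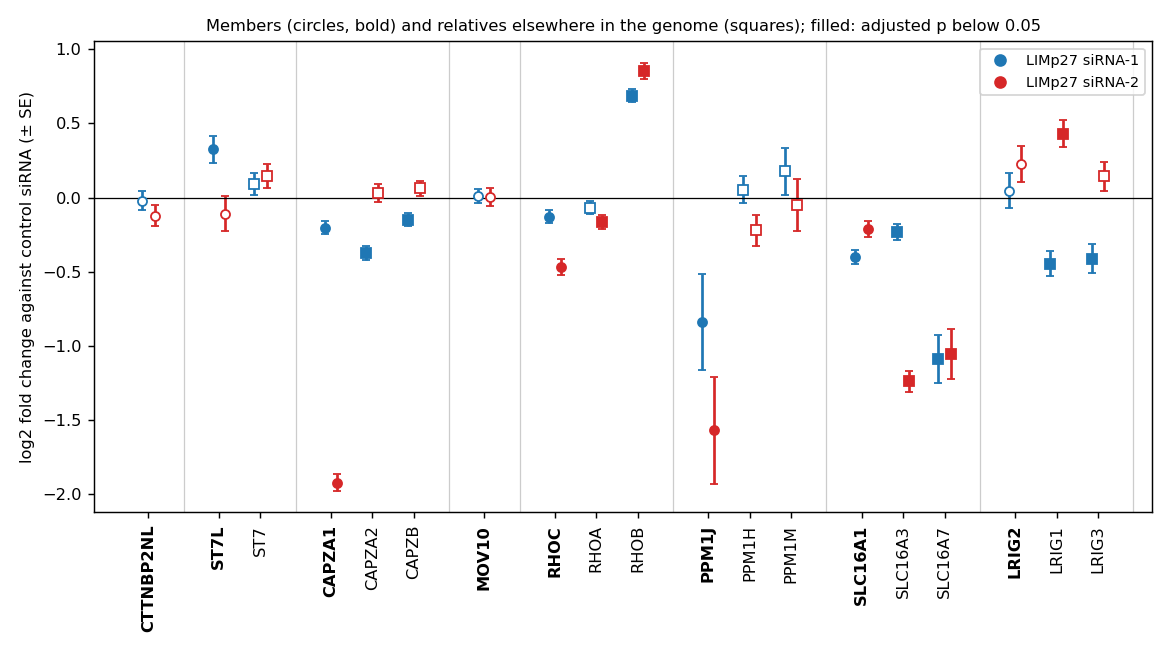
Log2 fold change ± SE against control siRNA for the 8 neighbours (circles, bold names) and their tested relatives elsewhere in the genome (squares), grouped by family, with siRNA-1 in blue and siRNA-2 in red, filled where the adjusted p was below 0.05. CAPZA1 falls to -1.92 with siRNA-2 where CAPZA2 and CAPZB sit at 0.03 and 0.06, and RHOB rises to 0.69 and 0.85 where RHOC falls.

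Of 18 genes whose products work with those of the neighbours, 4 were higher and 8 lower with siRNA-1, and 4 higher and 8 lower with siRNA-2. That is 66.7% with each, beside 59.9% and 61.1% of all tested protein-coding genes, and the median log2 fold changes were -0.07 and -0.17. In the STRIPAK complexes of CTTNBP2NL, MOB4 was lower with both (log2 fold change -0.38, SE 0.07, adjusted p = 3.94e-05, and -1.79, SE 0.09, adjusted p = 9.57e-16), as was the scaffold STRN (-0.56, SE 0.06, adjusted p = 1.32e-08, and -0.23, SE 0.07, adjusted p = 0.00895). The PP2A scaffold subunit PPP2R1A was higher with both (0.33, SE 0.05, adjusted p = 6.83e-07, and 0.18, SE 0.05, adjusted p = 0.00486). The PP2A catalytic subunit PPP2CA was at -0.06 and -0.41, STRN3 at 0.11 and -0.17, and STRN4 at -0.04 and -0.24, each called with 1 of the siRNAs apart from STRN3, called with neither. Of the genes that work with MOV10, AGO1 was higher with both (0.41 and 0.46), and AGO2, the Argonaute that cuts siRNA targets, was lower with both (-0.22, SE 0.04, adjusted p = 5.94e-05, and -0.50, SE 0.05, adjusted p = 1.61e-09). The RNA decay helicase UPF1 was lower with both (-0.34 and -0.18). EGFR, a receptor that LRIG proteins modulate, was lower with both (-0.58, SE 0.05, adjusted p = 4.92e-11, and -1.11, SE 0.06, adjusted p = 2.49e-15), and ERBB2 was higher with siRNA-2 (0.39, SE 0.06, adjusted p = 3.86e-06) and at -0.09 with siRNA-1. The kinases ROCK1 and ROCK2 were called with siRNA-1, lower and higher (-0.26 and 0.34), and not with siRNA-2 (-0.16 and 0.08), and DIAPH1 and ARHGDIA passed no test. With library totals alone no called relative or partner changed sign, CAPZB and LDHB lost their calls with siRNA-1 and RHOA, STRN and UPF1 theirs with siRNA-2, whereas ST7 passed with both, STRN3 with siRNA-1 and CAPZB, LRIG3 and ROCK2 with siRNA-2, each of these 5 higher.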

How the data were processed

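Total RNA of WiDr cells was sequenced as strand-specific libraries, 9 in all. The authors deposited 2 tables, each holding raw read counts per gene for the libraries of 1 LIMp27 siRNA and of control siRNA, not normalized. The control counts are the same in both. The submitters' processing notes name CASAVA (no version) and GRCh38. The aligner, the counting program and its strand setting are not given in the sources used here. A second deposited set of columns holds normalized signal, which the authors made by dividing each library's counts by 1 factor (checked on every gene). It was used only for that check. The deposited FPKM are the authors' counts per kilobase of mean transcript length, scaled by the library's reads, checked to within 1%. They were used for levels between genes. The authors' fold changes and p-values were not used.

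Counts were tested with edgeR 4.0.16 in R 4.3.3 (TMM, filterByExpr with a minimum count of 10, quasi-likelihood test, Benjamini-Hochberg over all tested genes, threshold 0.05), each comparison on its own 6 libraries. SE was taken as the size of the log2 fold change over √F, and 95% intervals use the degrees of freedom of the test. The method was tested on simulated data in which few genes changed, as many higher as lower. In the real data most genes tested against control were called, so the simulation does not check the scaling. All 8 neighbours passed the low count filter in each comparison. The study calls the libraries of a group biological repeats. The labels do not say what separated them, and p-values measure the spread between these libraries. Replicate numbers did not pair the libraries. Positions are from GENCODE 29 and promoters from RefSeq (GRCh38.p14). All 25159 gene IDs were found in GENCODE 29.

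The genes named are the 8 neighbours, LINC01356, every other gene of the window tested in at least 1 comparison, and the tested relatives and partners of a written list, with values for those called with both siRNAs or changed most in their family. A listed partner is not reported here and was left out of the list's counts. Values of the others, and of the genes named just outside the window, were added after they were seen. The neighbours and lists were chosen with earlier results of these data known. The library totals alternative was also chosen after seeing the data. Other alternatives were RLE factors, DESeq2 1.42.0, no filter, the replicate block, 1 fit over 9 libraries, leaving out libraries, and a 2-fold threshold.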

Additional observations from a re-analysis of the deposited data

Results flagged for a closer look

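Of the 8 neighbours, 4 differed between the LIMp27 siRNAs in a direct test of LIMp27 siRNA-2 against LIMp27 siRNA-1 (edgeR, adjusted p below 0.05). This is near the share of all tested protein-coding genes, 50.9%, beside 45.4% of all tested genes. CAPZA1 differed by -1.71 on the log2 scale, with every LIMp27 siRNA-2 library, at 84.0 to 93.2 CPM, below every LIMp27 siRNA-1 library, at 283.7 to 297.7 CPM. ST7L differed by -0.43, at 10.5 to 14.8 against 16.5 to 18.4 CPM. RHOC differed by -0.33, at 119.6 to 128.3 against 153.4 to 159.6 CPM. SLC16A1 differed by 0.20, at 156.6 to 174.0 against 134.7 to 154.2 CPM. Both siRNAs were designed against LIMp27, whose own reads were too few to say whether they lowered it to the same extent.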

How the results depend on the processing

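Across 3 comparisons and 15 alternatives, the 8 neighbours kept their side of the threshold in 339 of 360 values. Of the rest, 16 lost the call and 5 gained it, and no value called in either setting changed sign. Some values that were never called did change sign, such as CTTNBP2NL with LIMp27 siRNA-1, which ran from -0.13 to 0.08. The log2 fold change of CAPZA1 with LIMp27 siRNA-2 ran from -1.97 to -1.84, and with LIMp27 siRNA-1 from -0.23 to -0.11. The replicate block changed no call of the 8 and left the counts at 1 higher and 4 lower, 0 and 4, and 1 and 3 in the 3 comparisons. Deviations of same-numbered libraries correlated between -0.08 and 0.03. A 2-fold threshold left 0 higher and 0 lower with LIMp27 siRNA-1, 2 lower with LIMp27 siRNA-2 (CAPZA1 and PPM1J), and 0 higher and 1 lower between the siRNAs. Leaving out libraries gave 2 to 4 lower with LIMp27 siRNA-1, 0 to 1 higher and 3 to 5 lower with LIMp27 siRNA-2, and 0 to 1 higher and 2 to 3 lower between the siRNAs. The median log2 fold change over the 8 then ran from -0.13 (without replicate number 3) to -0.06 with LIMp27 siRNA-1, and from -0.27 (without number 3) to -0.098 (without number 1) with LIMp27 siRNA-2. Library totals alone gave 2 lower with LIMp27 siRNA-1, a median log2 fold change over the 8 of 0.020, and 1 higher (LRIG2) with LIMp27 siRNA-2. Counting all gene types, the shares called over 10 Mb away on chromosome 1 were 54.3%, 57.8% and 47.4%. Without the libraries of replicate number 1, SLC16A1 was lost with LIMp27 siRNA-2 (adjusted p = 0.127) and ST7L between the siRNAs (0.05). RHOC with LIMp27 siRNA-1 was lost without replicate number 1 (0.112) or 2 (0.0531). Without the 3rd LIMp27 siRNA-2 library CTTNBP2NL was called lower (0.0428). The same held, more strongly, without both libraries of replicate number 3 (log2 fold change -0.25, adjusted p = 0.00291). Few reads limit PPM1J, WNT2B and LINC01356. The planned comparison of protein identity was not run. The causes of these changes were not tested.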
